A study of Drosophila melanogaster and Drosophila simulans and Drosophila yakuba with 4 samples.

Results

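The peptidoglycan recognition protein (PGRP) genes are the family through which Drosophila detects bacterial cell walls, and 10 of them were followed here by name and identifier among the 15492 genes listed for D. melanogaster. The members were 3 recognition receptors (PGRP-LC, PGRP-LE and PGRP-SA), 4 amidases (PGRP-LB, PGRP-SB1, PGRP-SC1a and PGRP-SC2) and 3 membrane or regulatory proteins that are not known as amidases (PGRP-LA, PGRP-LD and PGRP-LF). All 10 were found in the table. The RNA came from whole white prepupae, animals at the very start of pupariation, and 1 library of D. melanogaster was used of the 4 libraries in the series, each of a different species. Strain, sex and number of animals in the pool are not stated in the labels, and no treatment or infection is named for any sample. The organism field of this sample names D. yakuba while its title names D. melanogaster, and 14872 of its 15492 identifiers were in the D. melanogaster gene table. With 1 library there are no replicates, so no test between conditions was possible and every comparison below is between genes of the same library. In RNA from whole animals, fewer cells of a type and less RNA per cell cannot be told apart.

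A PGRP carries a domain related to bacteriophage lysozymes that binds peptidoglycan, the mesh of the bacterial wall. Receptors of the family pass the signal on. PGRP-LC at the membrane and PGRP-LE inside cells start the IMD pathway, and the circulating PGRP-SA starts the Toll pathway. Amidases of the family keep a zinc-dependent activity that cuts peptidoglycan, and PGRP-LB and the PGRP-SC proteins are known for lowering the IMD response in the gut. Both pathways end in the induction of antimicrobial peptides by the fat body.

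Levels are given as FPKM, a count of fragments divided by transcript length and by the mapped total of the library, so that genes of different length can be compared. Each value is followed by the lower and upper bound that Cufflinks, the program that computed it, printed for the same gene. These bounds describe uncertainty within the library and not variation between animals. The reads implied by the bounds summed to 12038283 over the rows with status OK. This sum is not a count of sequenced or mapped reads. The median over all genes was 6.90 FPKM. The fat body marker genes, all 6 of them at 246 FPKM or more, were high in this library, the 10 midgut markers ran from 0.326 to 2508 FPKM and the 7 hemocyte markers from 0.341 to 318 FPKM. The part of these tissues in the PGRP levels was not tested.

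Transcripts of 9 of the 10 PGRP genes stood at an FPKM of 1 or more. Over all genes of the library this share was 74.5%. At 5 FPKM or more stood 8 of the 10, against 55.5% of all genes, and the same 8 lay above the median of all genes. The median over the 10 was 34.5 FPKM, with PGRP-LA highest and PGRP-SC1a, listed at 0, lowest. In order of level came PGRP-LA, PGRP-SA, PGRP-SB1, PGRP-LE, PGRP-SC2, PGRP-LC, PGRP-LF, PGRP-LD, PGRP-LB and PGRP-SC1a. Bounds overlapped between neighbors in this order from PGRP-SA down to PGRP-LC, a plateau that holds all 3 receptors and the higher amidases. The remaining neighbors in the order had bounds that did not overlap.

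**Figure D1:**
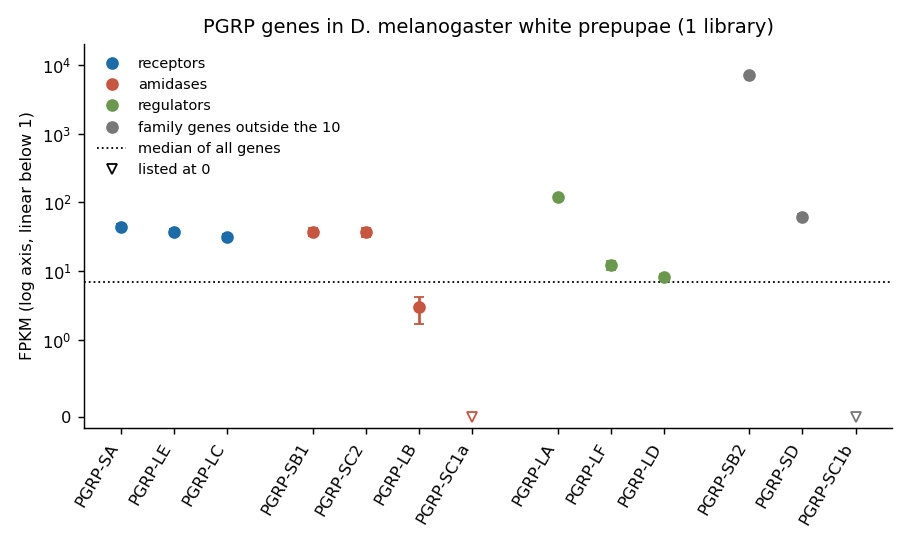
FPKM of the PGRP genes in the D. melanogaster white prepupa library, on a log axis that is linear below 1. Points are single values with the Cufflinks bounds as bars (narrower than the point for high genes), open triangles are genes listed at 0, and the dotted line is the median of all genes at 6.90. The 3 receptors sit between 31.7 and 44.2, while the 4 amidases spread from 0 to 37.5 and PGRP-SB2 stands at 7055.

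The 3 receptors were expressed within 1.39 times of each other. PGRP-SA (FBgn0030310), the circulating receptor for Lys-type peptidoglycan, was the highest of them at 44.2 FPKM (bounds 40.5 and 47.8). PGRP-LE (FBgn0030695), which senses DAP-type peptidoglycan inside the cell, stood at 37.3 (34.1 and 40.6). PGRP-LC (FBgn0035976), the transmembrane receptor of the IMD pathway, stood at 31.7 (28.3 and 35.1). Their percentiles among all genes of the library ran from 77.5 to 82.1. For PGRP-SA over PGRP-LC, the highest over the lowest, this ratio had an interval of 1.22 to 1.59. This and the other intervals of ratios are exact binomial (Clopper-Pearson) 95% intervals on the reads implied by the bounds, rounded to whole numbers. They are meant to cover counting error only. Implied reads of PGRP-LA, PGRP-LC, PGRP-LE, PGRP-LB and PGRP-LD were not whole, and neither were those of PGRP-SB2. The intervals of all these genes are therefore approximate. PGRP-SA and PGRP-LC had bounds that did not overlap. The bounds of PGRP-LE overlapped those of both others, at 1.18 times PGRP-LC (1.02 to 1.35) and with PGRP-SA at 1.18 times PGRP-LE (1.05 to 1.33).

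On dm3, the build named in the submitters' processing notes, PGRP-SA lies on chromosome X from 11455562 to 11456813 and PGRP-LE on X from 15695186 to 15697798. PGRP-LC lies on chromosome 3L from 9331910 to 9341436. In the newer Ensembl annotation PGRP-LC has 10 transcripts of 3 to 6 exons. Splice forms of PGRP-LC with different recognition domains are known to bind different peptidoglycan fragments, and the table gives 1 value per gene, so the forms were not separated. PGRP-SA and PGRP-LE have 2 transcripts each. No exon of the 3 receptors shares bases with an exon of another gene in that annotation. In the table the locus of PGRP-SA overlaps that of Polr2A, on the opposite strand and at 6.06 FPKM, by 8 bases, and CG1572 on its other side was at 164 FPKM. PGRP-LE lies between CG15602 at 41.8 FPKM and sd, a transcription factor gene, at 49.6.

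Among the amidases, PGRP-SB1 and PGRP-SC2 matched the receptors, PGRP-LB was far lower and PGRP-SC1a was listed at 0. PGRP-SB1 (FBgn0043578), a secreted amidase of 1 transcript and 2 exons, stood at 37.5 FPKM (32.4 and 42.5). PGRP-SC2 (FBgn0043575), a single-exon gene for a secreted amidase, stood at 37.2 (31.7 and 42.7). These levels are alike within their bounds, with a ratio of 1.01 (0.824 to 1.23). The value of PGRP-SB1 carries a limit, since it lies 10 bases from PGRP-SB2, which stood at 7055 FPKM. Its implied reads are 0.491% of those of PGRP-SB2, and whether reads of PGRP-SB2 were placed in it was not tested. PGRP-LB (FBgn0037906), the amidase best known for restraining the IMD pathway, stood at 2.998 (1.73 and 4.27). Its value rests on 22.3 implied reads, the fewest of any member above 0, and its bounds lie 42.3% of the FPKM away. PGRP-SC2 was 12.4 times PGRP-LB (7.95 to 20.3).

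PGRP-SC1a (FBgn0043576), also known from phagocytosis of bacteria by hemocytes, was listed at an FPKM of 0 with both bounds at 0. Its near-identical copy PGRP-SC1b (FBgn0033327) was at 0 as well. A count of 0 allows up to 3 reads, or 0.613 FPKM at the FPKM per read of PGRP-SC2, whose locus of 555 bases is close in length to the 558 bases of PGRP-SC1a. Among all genes of the library 10.9% were listed at 0, and none of the 87 genes with a cytosolic ribosomal protein name was. Those 87 were taken by name and not for near-identical copies, so they cannot show how shared reads were treated. How reads that match both PGRP-SC1 copies were assigned is not described for these files, so the zeros of this pair are uncertain, and the part of shared reads in them was not tested.

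PGRP-LB lies on chromosome 3R from 7278571 to 7286274, wholly within the locus of CG17230 on the opposite strand, which stood at 9.06 FPKM. In the newer Ensembl annotation the exons of PGRP-LB and CG17230 share no bases. Next to PGRP-LB, sals stood at 12.9 FPKM. The annotation gives PGRP-LB 6 transcripts of 3 exons. Splice forms of PGRP-LB that are secreted or kept in the cell are known, and they were not separated either.

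Set against each other, receptors were the higher gene in 9 of the 12 pairs of 1 amidase and 1 receptor, and amidases in 3. In 6 pairs the receptor was higher with bounds that did not overlap, and these are the 3 pairs of PGRP-LB and the 3 of PGRP-SC1a. The 3 pairs of PGRP-SC1a rest on its listed zero, which is uncertain because the handling of reads shared with PGRP-SC1b is not described. In no pair was the amidase higher with bounds apart. PGRP-LC was 10.6 times PGRP-LB (6.88 to 17.1), PGRP-LE 12.5 times (8.14 to 20.0) and PGRP-SA 14.7 times (9.64 to 23.7). PGRP-SB1 was 1.18 times PGRP-LC (0.992 to 1.40), 1.003 times PGRP-LE (0.853 to 1.18) and 0.848 times PGRP-SA (0.723 to 0.992). The ratios of PGRP-SB1 are as listed, since the placement of PGRP-SB2 reads in it was not tested. For PGRP-SC2 the ratios were 1.17 to PGRP-LC (0.974 to 1.41), 0.996 to PGRP-LE (0.837 to 1.18) and 0.842 to PGRP-SA (0.709 to 0.996). As listed, PGRP-SB1 and PGRP-SC2 therefore fell inside the range of the receptors, between PGRP-LC and PGRP-SA. PGRP-LB fell below it, and so did PGRP-SC1a as listed.

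The median of the 4 amidases was 20.1 FPKM and that of the 3 receptors 37.3, a ratio of 0.538. The medians of the bounds place this ratio between 0.411 and 0.687. That range takes the zero of PGRP-SC1a as listed, and this zero is uncertain. The ratio rests on the lower pair of amidases together, since it was 0.996 without PGRP-SC1a and also 0.996 without PGRP-LB. By sums the listed amidases reached 77.6 FPKM and the receptors 113 FPKM. These are descriptions of 7 genes in 1 library, and genes are not replicates.

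**Figure D2:**
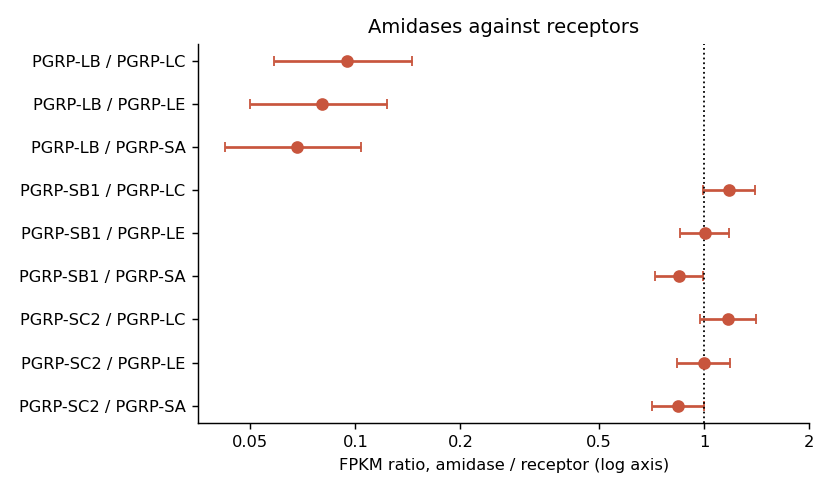
FPKM ratio of an amidase to a receptor on a log axis for the 9 pairs in which both genes were above 0. Bars are exact binomial 95% intervals on implied reads, meant to cover counting error only. The dotted line marks equal levels. The ratios of PGRP-LB lie from 0.0678 to 0.0945, and those of PGRP-SB1 and PGRP-SC2 from 0.842 to 1.18. Whether reads of PGRP-SB2 were placed in PGRP-SB1 was not tested.

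The 3 members that are neither recognition receptors nor known amidases included the highest gene of all 10 and 2 of the lower ones. PGRP-LA (FBgn0035975), a regulatory protein of the IMD pathway, stood at 119 FPKM (111 and 127), at percentile 92.2. It was 2.69 times PGRP-SA (2.42 to 2.99), the next member in order. PGRP-LF (FBgn0035977), a membrane protein that holds back PGRP-LC signaling, stood at 12.3 (10.6 and 13.9). PGRP-LD (FBgn0260458), a transmembrane member, stood at 8.21 (7.25 and 9.16). PGRP-LA was 14.5 times PGRP-LD (12.7 to 16.6).

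Overlapping genes limit the lower pair of these values. In the newer Ensembl annotation, 602 (44.4%) of the 1355 exonic bases of PGRP-LF are shared with exons of UGP on the opposite strand. UGP stood at 140 FPKM. Of the 3957 exonic bases of PGRP-LD, 93.1% are shared with other genes, among them Pmi on the same strand at 2.10 FPKM and Cralbp on the opposite strand at 6.12. Whether the reads carry strand is not described for these files, so reads of PGRP-LF and UGP, or of PGRP-LD and its partners, cannot be told apart in the shared bases. On the other side of PGRP-LD the kinase gene Myt1 stood at 4.003 FPKM. In that annotation the exons of PGRP-LA share no bases with another gene. Exon overlap in the gene models behind the FPKM was not examined.

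**Figure D3:**
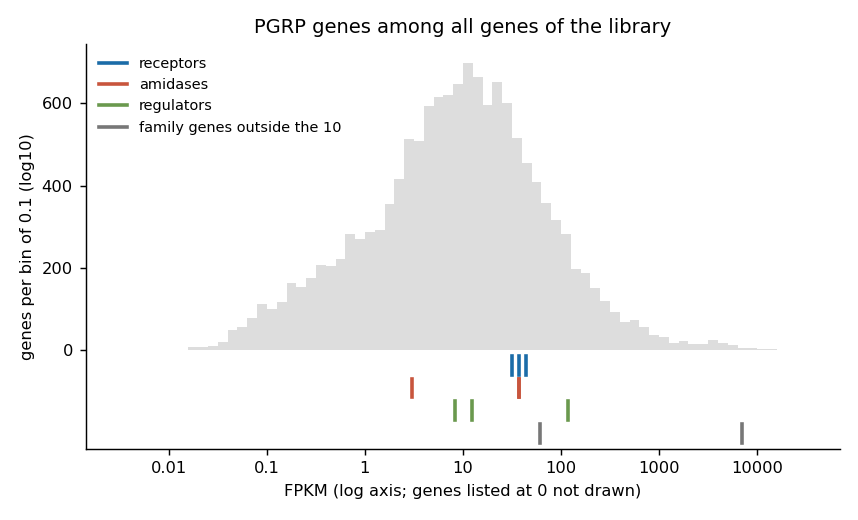
Histogram of FPKM over all genes of the library above 0, on a log axis, with a mark under it for each PGRP gene above 0, in rows by class. The receptor marks lie close together at percentiles 77.5 to 82.1, the amidase PGRP-LB lies alone at 2.998 and PGRP-SB2 lies at the far right at 7055.

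PGRP-LA, PGRP-LC and PGRP-LF lie side by side on the plus strand of chromosome 3L, and their levels stepped down along it. PGRP-LA runs from 9327432 to 9331436 and ends 473 bases before PGRP-LC. PGRP-LF, from 9342709 to 9344589, begins 1272 bases after PGRP-LC ends. PGRP-LA was 3.74 times PGRP-LC (3.30 to 4.25), and PGRP-LC 2.59 times PGRP-LF (2.18 to 3.09). All 3 pairs of these genes had bounds that did not overlap. As listed, the activating and the inhibiting neighbor of the receptor differed by 9.70 times (8.33 to 11.3). The ratios with PGRP-LF carry the limit given above, since 44.4% of its exonic bases are shared with UGP.

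Family genes outside the 10 were looked at beside them, since the family in this genome has 13 genes in the table. PGRP-SB2 (FBgn0043577), classed as an amidase by its sequence, reached 7055 FPKM (6989 and 7122) and was the gene with the 16th highest FPKM of the library. It was 1.09 times Fbp1 (1.07 to 1.10), a receptor protein of the prepupal fat body and one of the fat body markers. PGRP-SB2 alone made up 94.7% of the summed FPKM of the 13 genes and was 21.4 times the sum of the 10 members. It accounts for 0.372% of all implied reads. PGRP-SD (FBgn0035806), a circulating recognition protein that acts with PGRP-SA, stood at 61.3 (55.6 and 66.9), which is 1.39 times PGRP-SA (1.23 to 1.57). Its locus lies within that of CG32373, at 11.1 FPKM, and overlaps that of CG7492, at 5.37 FPKM, by 35 bases. With PGRP-SB2 and PGRP-SC1b counted as amidases and PGRP-SD as a receptor, the summed FPKM of amidases was 40.9 times that of receptors, whereas the ratio of medians was 0.493. The ratio of sums thus takes its direction from PGRP-SB2.

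PGRP-SB2 and PGRP-SB1 are neighbors that face each other on chromosome 3L, from 16719641 to 16720388 on the plus strand and from 16720399 to 16721089 on the minus strand. Only 10 bases lie between them. Their levels differed by 188 times (165 to 216). PGRP-SB1 has 220 implied reads, 0.491% of those of PGRP-SB2. Whether reads of PGRP-SB2 were placed in PGRP-SB1 was not tested. On the other side of PGRP-SB2, CG13026 stood at 263 FPKM and CG13031 at 32.8, and beyond PGRP-SB1 the helicase gene Dbp73D stood at 7.98.

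The PGRP-SC genes form another group, on chromosome 2R, all on the plus strand. PGRP-SC1a lies from 4597268 to 4597825, PGRP-SC1b from 4600949 to 4601587 and PGRP-SC2 from 4604472 to 4605026. Between the PGRP-SC1 copies lies CG14743, at 2.54 FPKM, and outside the group lie CG14744 at 4.86 and CG14767 at 211 FPKM. PGRP-SC2 was the only member of the group listed above 0, with 182 implied reads, and the zeros of the PGRP-SC1 copies are uncertain.

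**Figure D4:**
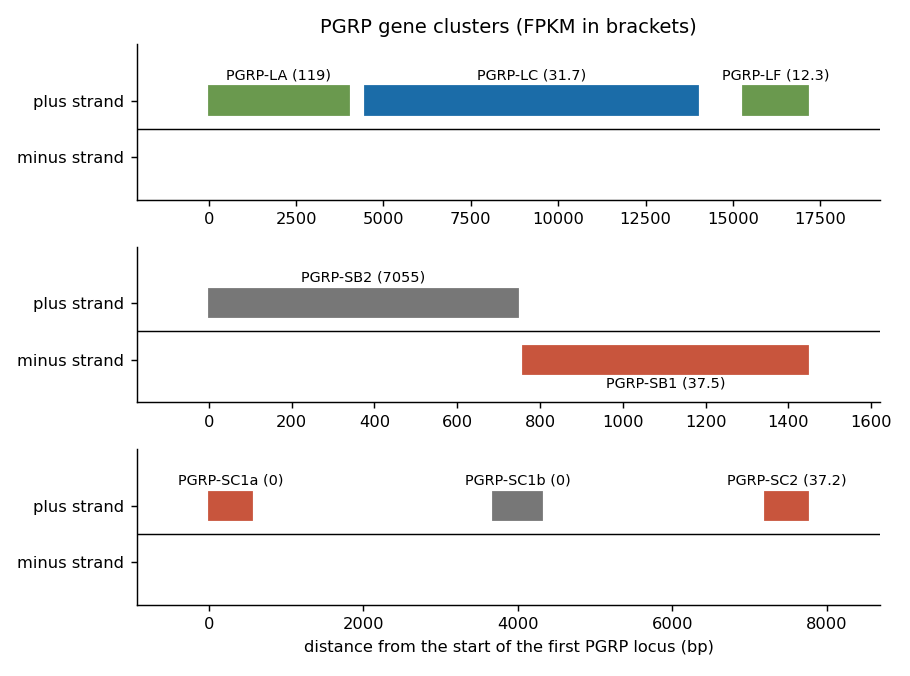
Loci of the 3 groups of neighboring PGRP genes, drawn to scale within each panel as distance in bases from the first locus, above the line for the plus strand and below it for the minus strand, with the FPKM in brackets. Levels as listed step down from PGRP-LA to PGRP-LF and differ by 188 times across the 10 bases between PGRP-SB2 and PGRP-SB1. In the group of PGRP-SC genes only PGRP-SC2 is above 0, and the zeros of the PGRP-SC1 copies are uncertain.

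The pathway genes downstream of the receptors were all detected. Of the 19 genes of the IMD list, 19 stood at an FPKM of 1 or more and 18 at 5 or more, where 74.5% and 55.5% of all genes stood, and the median of the list was 28.1 FPKM. The receptors PGRP-LC and PGRP-LE stood in the range of the core signaling genes. The adaptor gene imd was at 31.5 FPKM, and PGRP-LC was 1.01 times imd (0.879 to 1.15). Fadd, the adaptor that joins imd to the caspase Dredd, was at 20.1 and Dredd at 27.7. The IKK kinase gene IKKbeta was at 28.1, its partner key at 128, and Rel, the NF-kB factor that PGRP-LC signaling activates, at 28.1. Lower levels were seen for the kinase gene Tak1 at 8.12, its partner Tab2 at 4.58, the lowest of the list, and the ubiquitin ligase gene Diap2 at 7.02. The ubiquitin conjugation genes eff at 726, ben at 684 and Uev1A at 298 were the highest of the list, and akirin, a nuclear partner of Rel, was at 268.

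Inhibitors of the IMD pathway other than amidases were present too. The gene pirk, whose product removes PGRP-LC from the membrane, was at 22.7 FPKM, and PGRP-LC was 1.40 times pirk (1.21 to 1.62). The deubiquitinase genes CYLD at 107 and Usp36 at 19.6, casp at 99.2, POSH at 6.997 and dnr1 at 5.26 completed this group. PGRP-LB, the amidase inhibitor, was thus below each of these inhibitors in FPKM.

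For the Toll pathway, 22 of 22 listed genes stood at an FPKM of 1 or more (74.5% of all genes) and 18 at 5 or more (55.5% of all genes), with a median of 13.4 FPKM. GNBP1, the partner with which PGRP-SA recognizes Lys-type peptidoglycan, was at 23.0, and PGRP-SA was 1.92 times GNBP1 (1.71 to 2.17). GNBP3, a sensor of fungal glucans, was at 53.4 and GNBP2 at 5.996. The serine protease cascade between recognition and the receptor was uneven. Its first protease modSP was at 27.9 and spirit at 22.3, while Hayan was at 6.70, grass at 4.58, psh at 3.17 and SPE, which cleaves the ligand, at 1.85, the lowest of the list. The serpin gene nec, which restrains psh, was at 4.51.

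The Toll ligand gene spz was at 25.9 FPKM and the receptor gene Tl at 16.5. Of the adaptors and the kinase below it, tub was at 28.5, Myd88 at 15.3 and pll at 7.47. The NF-kB factor genes Dif and dl were at 14.3 and 8.09, and cact, which holds them in the cytoplasm, at 68.0. Pli, a Pellino ubiquitin ligase, was the highest of the list at 147. The zinc finger gene wek was at 12.4, the kinase gene Gprk2 at 9.97 and the transcription factor gene Deaf1 at 6.51. All 3 PGRP receptors had bounds above those of Tl. They also had a higher FPKM than every protease of the cascade, though the bounds of PGRP-LC and modSP overlapped.

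**Figure D5:**
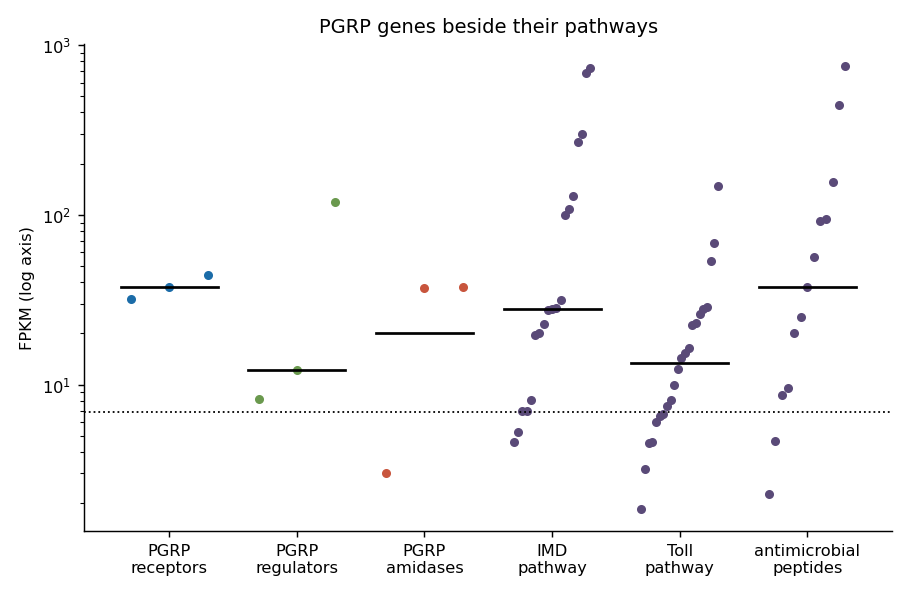
FPKM on a log axis of the PGRP classes beside the IMD pathway, Toll pathway and antimicrobial peptide lists, 1 point per gene above 0. Black lines are medians over all measured genes of a list, genes at 0 included, and the dotted line is the median of all genes at 6.90. The PGRP receptors, with a median of 37.3, lie above the medians of the IMD list at 28.1 and the Toll list at 13.4, and the antimicrobial peptides spread from 2.27 to 750.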

How the data were processed

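RNA of whole white prepupae was sequenced in 1 library per species. Single-end reads were trimmed by the authors and aligned with TopHat, and Cufflinks gave the FPKM of each gene with its bounds, as deposited. The submitters' notes also name Bowtie, SAMtools and dm3. Versions used for the RNA-seq: not given in the sources used here. Tables of the other 3 species were not used, because their identifiers were not paired with gene names.

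Rows of a gene were summed. Names came from a gene table that held 14872 of 15492 identifiers. Starts, counted from 0 in the table, were moved to 1-based coordinates. Exons and strands came from the Ensembl BDGP6 annotation, on another build, so its coordinates are not printed. Reads were solved from the bounds, taken to lie 2 times the FPKM over the square root of the reads away on either side. Among genes under 300 such reads, 69.3% gave whole numbers within 0.05 reads, so implied reads are approximate. The arithmetic and the ratio intervals were tested on data simulated with this same formula. That test checks the computation and cannot show whether the formula holds for these data.

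The named genes were every PGRP gene of the table, genes next to or overlapping them, and, of the pathway lists, the 2 highest, the 2 lowest and the members of each described step. Members and lists were chosen with earlier results of these data known. Alternatives were FPKM minimums of 0.1 and 5, rows with status OK, other class memberships, bounds, pseudocounts of 1 and 0.1 and sums. Protein sequences were not analysed here. Computations ran in Python 3.11.15 (pandas 2.3.3, numpy 2.4.6, scipy 1.17.1), with figures drawn in matplotlib 3.10.9.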

Additional observations from a re-analysis of the deposited data

How the results depend on the processing

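Of 17 comparisons of a result with an alternative, 13 kept their value. For a count this means within 1.5 times, and for the ratio of medians inside the range its bounds give. A further 11 could not change the result and test nothing: rows with status OK, the FPKM minimum of 0.1, and the bounds of the ratio of medians, which set its own range. Some of the 13 also had little room to move. Leaving out PGRP-SC1a or PGRP-LB only removed pairs in which the receptor was higher, and the pseudocounts are small beside both medians. The ratio of summed FPKM, 0.6856, lay just inside the upper end of the range, 0.6868. Amidases were higher in 25.0% of pairs with receptors and in 0% when their lower bounds were set against the upper bounds of receptors. The ratio of the amidase median to the receptor median was 0.996 without PGRP-SC1a, 0.996 without PGRP-LB, and 40.9 by sums with PGRP-SD, PGRP-SB2 and PGRP-SC1b included, of which the last and the setting without PGRP-LB were chosen after seeing the data. No paired analysis was possible because each species has a single library. With 22.3 implied reads and bounds 42.3% of its FPKM away, the value of PGRP-LB is imprecise. The parts of depth and of read assignment in this were not tested.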

Other observations

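Antimicrobial peptide genes, the outputs of the pathways that PGRP receptors start, were all detected, at 13 of 13 measured genes with an FPKM of 1 or more (74.5% of all genes) and a median of 37.5 FPKM. Drs was not matched to a measured gene. Mtk, the gene of an antifungal peptide, was highest at 750 FPKM, followed by DptA, an IMD target, at 440. AttC at 2.27 and CecB at 4.63 were lowest.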
